A study of Mus musculus with 70 samples.

Results

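The 3 subunits of the epithelial sodium channel (Scnn1a, Scnn1b and Scnn1g) and the beta-1 subunit of the sodium pump (Atp1b1) were followed as 4 genes, chosen by symbol, among 24423 genes counted in mouse lung. The 70 libraries came from male mice, each counted here as 1 mouse, bred from heterozygous 129S-Slc26a4tm1Erg/AjgJ parents. Wildtype mice (Pds+/+) carried the normal gene on both chromosomes, and knockout mice (Pds-/-) the targeted allele on both; all groups came from this 1 strain. Slc26a4 encodes pendrin, an anion exchanger of epithelial cells. At about 3 months of age the mice breathed filtered air or 15 mg/m3 of Min-U-Sil5 crystalline silica in whole-body chambers for 6 hours a day on 4 days. A piece of lung was taken 1 day, 3 months or 9 months later, which gave 12 groups: 6 mice in each of 10 groups and 5 mice in each wildtype group of 9 months. Air mice of the same genotype and time were the controls for silica, and wildtype mice of the same exposure and time were the controls for the knockout.

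The epithelial sodium channel sits in the apical membrane of airway and alveolar epithelium and lets sodium enter the cell from the liquid that covers it. The sodium pump (Na,K-ATPase) of the basolateral membrane then moves the sodium out of the cell in exchange for potassium, and water follows. Both proteins thus help to set how much liquid lies on the surface of the lung. In the channel, the alpha subunit (Scnn1a) is needed for a working pore, and the beta (Scnn1b) and gamma (Scnn1g) subunits raise the number and activity of channels at the surface. In the pump, a catalytic subunit needs a beta subunit, here Atp1b1, to fold and to reach the membrane.

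On GRCm38 (GENCODE M21 gene models), Scnn1g lies at chr7:121734479-121768475 and Scnn1b at chr7:121865038-121918514, both on the plus strand and 96562 bases apart. Scnn1a lies at chr6:125320659-125344943 on the plus strand, and Atp1b1 at chr1:164437109-164458355 on the minus strand. The counts used here cover whole genes. Scnn1b overlaps Cog7 of the opposite strand with 0 shared exon bases. Atp1b1 shares 575 exon bases (18.66% of its own) with Nme7 of the opposite strand, and because the strand setting of the counting is not given in the sources used here, reads there cannot be assigned to one of both genes. The 250 bases before the start sites of Scnn1g and Scnn1b are shown because these neighbouring genes had the most similar profiles among the 4. They are RefSeq sequences of GRCm38.p6, plus strand, chr7:121734229-121734478 for Scnn1g and chr7:121864788-121865037 for Scnn1b.
Scnn1g: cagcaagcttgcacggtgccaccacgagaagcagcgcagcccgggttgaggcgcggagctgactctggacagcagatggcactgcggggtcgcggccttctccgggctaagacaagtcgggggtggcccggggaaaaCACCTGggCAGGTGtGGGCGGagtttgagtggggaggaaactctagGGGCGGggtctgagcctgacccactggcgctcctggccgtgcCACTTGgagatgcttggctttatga
Scnn1b: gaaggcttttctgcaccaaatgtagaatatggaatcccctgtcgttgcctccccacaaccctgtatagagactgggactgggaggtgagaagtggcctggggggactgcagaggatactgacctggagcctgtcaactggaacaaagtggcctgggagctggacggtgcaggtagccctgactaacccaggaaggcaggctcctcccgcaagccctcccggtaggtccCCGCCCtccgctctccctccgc

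Capitals mark letters that were searched on both strands of 300-base windows, from 250 bases before to 50 bases after the start, and the letters were chosen after the sequences had been seen. The Scnn1g window held GGGCGG (a GC box) at 98 and 67 bases before the start, CAGGTG (an E-box) at 113 bases before it on the minus strand, where it reads CACCTG above, and at 105 bases before it on the plus strand, and CACTTG (an NKX2 core) at 25 bases before it. The Scnn1b window held GGGCGG at 22 bases before the start, on the minus strand (CCGCCC above), and CAGGTG at 21 bases after it, outside the printed stretch. Neither window held TATAAA, known as the TATA box, nor the CCAAT box, nor the half-site for the glucocorticoid receptor that is spelled AGAACA. Of 32851 mouse promoters of this length 35.66% held GGGCGG, 20.21% CAGGTG, 13.56% CACTTG, 13.62% TATAAA, 37.41% CCAAT and 18.97% AGAACA, so each match is common and is given as a description of the letters only. No motif overlapped another in either window. The Atp1b1 window was also matched and held 2 GGGCGG and 2 CCAAT.

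Libraries held 802478 to 5596318 counts on genes (median 2183481.5). Each library gave 205 to 1820 counts on Scnn1a, 93 to 680 on Scnn1b, 120 to 785 on Scnn1g and 219 to 1187 on Atp1b1. Levels below are normalised CPM, which are counts scaled to a common library size. Markers of lung epithelium were present in every library, with Sftpc of alveolar type 2 cells at 4115 to 6770 CPM and Ager of alveolar type 1 cells at 842 to 1780 CPM. Slc26a4 was lower in knockout than in wildtype mice of the same exposure and time, with group means of 1.74 and 8.46 CPM in air at 1 day and 2.13 and 11.7 at 3 months, except that single air mice of 9 months overlapped. Libraries that stood apart are named here by group and replicate. The library labelled KO_air_9m replicate 4 held Slc26a4 at 51.7 CPM, above the other mice of its group (1.32 to 16.8). Knockout silica mice also gave Slc26a4 counts, with 6.01 to 20.5 CPM at 1 day and 3.38 to 36.4 at 3 months. Whether the label of KO_air_9m replicate 4 is right was not tested, and the library was kept under it. In 3 air mice of 9 months (WT_air_9m replicate 5, the library labelled KO_air_9m replicate 4, and KO_air_9m replicate 5) Chil3, a macrophage gene, was above every silica mouse of that time. Slc26a4 was 74.2 CPM in WT_air_9m replicate 5 (6.42 to 21.6 in the other mice of its group) and 16.8 in KO_air_9m replicate 5. The library KO_silica_3m replicate 3 had the lowest summed alveolar type 1 markers (3200 CPM over 8 genes, highest library 6344) and the lowest summed club cell markers (4595 CPM over 4 genes, highest library 20568) of the 70. In bulk tissue, fewer cells of a type and less RNA per cell cannot be told apart.

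All 4 genes were well expressed in every group, and their group means stayed within a narrow band. Per kilobase of the longest coding transcript, the mean level over all libraries was 86.8 CPM for Scnn1a, 47.8 for Scnn1b, 46.8 for Scnn1g and 90.5 for Atp1b1. The alpha subunit of the channel thus stood above the beta and gamma subunits, which were close to each other. Between the lowest and the highest of the 12 group means there was a factor of 1.48 for Scnn1a, from 249.2 ± 28.7 CPM in knockout silica mice of 3 months (SD, n = 6) to 369 ± 68.8 in wildtype air mice of 9 months (SD, n = 5). For Scnn1b the factor was 1.42, from 103 ± 13.3 CPM in knockout silica mice of 1 day (SD, n = 6) to 147 ± 8.33 in wildtype air mice of 9 months (SD, n = 5). For Scnn1g it was 1.41, from 119 CPM in knockout silica mice of 3 months to 168 ± 21.8 in wildtype air mice of 9 months (SD, n = 5). For Atp1b1 it was 1.246, from 209 ± 38.0 CPM in knockout silica mice of 3 months to 260 ± 43.0 in wildtype air mice of 3 months (SD, n = 6 each). When the group means were put in order, 0 of 11 neighbouring pairs were further apart than 1 SD for Scnn1a, Scnn1g and Atp1b1. For Scnn1b it was 1 of 11, wildtype air mice of 9 months above knockout silica mice of 9 months, at 1.73 SD.

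**Figure D1:**
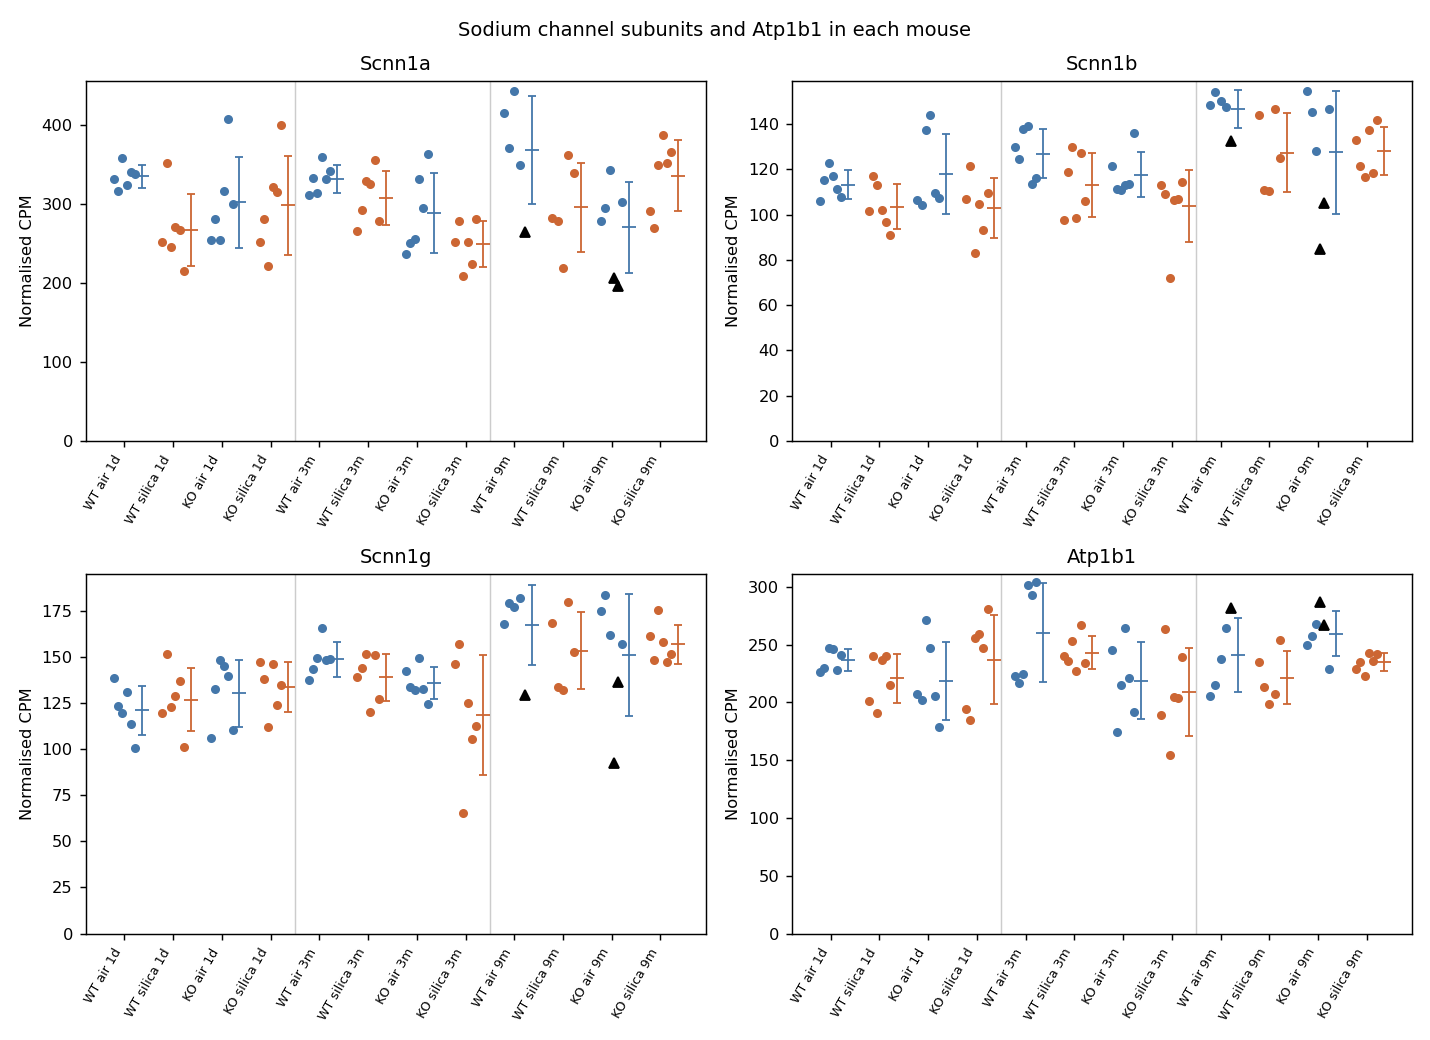
Each panel plots 1 gene, with normalised CPM on a linear axis from 0 and the 12 groups of genotype (WT, wildtype; KO, knockout), exposure and time along the horizontal axis. Points are mice (blue air, orange silica), black triangles are the 3 air mice of 9 months with high Chil3, and bars are means ± SD; wildtype air mice of 9 months hold the highest group mean of all 3 channel subunits.

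At 1 day after silica, the channel's alpha subunit had its lowest values in wildtype mice, but neither it nor any other of the 4 genes passed the test. In wildtype air mice Scnn1a ranged narrowly, from 317 through a median of 334 to 359 CPM. In wildtype silica mice it was 215, 259 and 352 CPM (lowest, median, highest). In 5 of the 6 silica mice it was below every air mouse, and the sixth was within the air range. The log2 fold change was -0.33 (standard error 0.12, 95% interval -0.58 to -0.08, adjusted p = 0.190 by edgeR's quasi-likelihood test with Benjamini-Hochberg adjustment). The call depended on the fit: limma voom with quality weights gave an adjusted p of 0.0157, edgeR on the compared groups only 0.0181, and edgeR without WT_silica_1d replicate 2 0.0379, and over all 31 alternatives the adjusted p went from 0.0157 to 0.411. By edgeR 0 of 4 genes passed in wildtype mice and 1 passed unadjusted, by DESeq2 0 and by voom 1. Of all 12558 genes tested, 2.48% passed by edgeR (13.3% unadjusted). That is 311 genes, where voom gave 761. The summed club cell markers were 11380 to 13888 CPM in these air mice and 9551 to 11293 in the silica mice, and none of the 4 markers was at 0. The summed alveolar type 1 markers were 5266 to 5658 and 5183 to 5660 CPM. The part of other cells in the Scnn1a values was not tested.

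In knockout mice of 1 day, Scnn1a was 254, 291 and 408 CPM (lowest, median, highest) in air and 221, 298 and 400 CPM after silica, and the groups overlapped over nearly their whole range. Its log2 fold change was -0.03 (95% interval -0.28 to 0.23). Here 0 of 4 genes passed (0 unadjusted, 0 by DESeq2 and 0 by voom) against 1.96% of all genes (11.2% unadjusted). Whether silica acted differently on Scnn1a in the genotypes was tested by the interaction, which no member passed (lowest adjusted p = 0.897). Scnn1b, the beta subunit, had a log2 fold change of -0.14 in wildtype and -0.18 in knockout mice. Over both genotypes it was -0.16 (standard error 0.06, adjusted p = 0.182). Scnn1g stood at 0.06 and 0.05, and Atp1b1 at -0.10 and 0.12. Over both genotypes 0 of 4 passed (1 unadjusted, 0 by DESeq2, 0 by voom), with 4.62% of all genes passing (16.3% unadjusted). The 95% intervals over both genotypes reached from -0.35 to 0.001 for Scnn1a, -0.08 to 0.19 for Scnn1g and -0.12 to 0.14 for Atp1b1.

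At 3 months after silica all 4 genes had fold changes below 0 in both genotypes, with none past the adjusted threshold. Scnn1b was 113, 127 and 139 CPM in wildtype air mice and 97.5, 112 and 130 CPM in wildtype silica mice (lowest, median, highest). In knockout mice it was 111, 113 and 136 CPM in air and 71.8, 108 and 114 CPM after silica. The medians were lower after silica in both genotypes, and the groups overlapped. Over both genotypes the log2 fold change of Scnn1b was -0.17 (standard error 0.06, adjusted p = 0.0846, and 0.0509 to 0.172 over the alternatives). Scnn1a had -0.16 (standard error 0.06, adjusted p = 0.125), Scnn1g -0.16 (standard error 0.09) and Atp1b1 -0.08. Without KO_silica_3m replicate 3, Scnn1g was -0.0912 and Atp1b1 -0.0454, and voom gave -0.0345 for Atp1b1. By edgeR 0 of 4 passed and 2 passed unadjusted, with 0 by DESeq2 and 0 by voom, against 8.2% of all genes (20% unadjusted).

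By genotype at 3 months, the values in wildtype mice were -0.11 for Scnn1a, -0.16 for Scnn1b, -0.09 for Scnn1g and -0.09 for Atp1b1. There 0 of 4 passed (0 unadjusted, 0 by DESeq2, 0 by voom), with 3.02% of all genes passing (13.3% unadjusted). Knockout mice had -0.21 for Scnn1a (standard error 0.09, adjusted p = 0.205), -0.19 for Scnn1b (adjusted p = 0.273), -0.22 for Scnn1g and -0.07 for Atp1b1. There 0 of 4 passed (2 unadjusted, 0 by DESeq2, 0 by voom), with 4.86% of all genes passing (16.7% unadjusted). Part of the knockout values came from 1 library, KO_silica_3m replicate 3, which held the lowest Scnn1b (71.8 CPM) and Scnn1g (65.5 CPM) of all 70 libraries. Without it the knockout fold changes were -0.17 for Scnn1a (adjusted p = 0.415), -0.10 for Scnn1b (0.625), -0.10 for Scnn1g (0.625) and -0.0029 for Atp1b1, by edgeR. The interaction of genotype and silica passed for no gene of the 4 (lowest adjusted p = 0.907). The summed alveolar type 1 markers were 5251 to 5670 CPM in wildtype air mice and 4688 to 5306 in wildtype silica mice, and 5236 to 5855 and 3200 to 5050 in knockout mice, with none of the 8 markers at 0. Their part in the channel values was not tested.

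At 9 months after silica, Scnn1a values pointed down in wildtype and up in knockout mice, again without passing. The 5 wildtype air mice had 415, 371, 444, 350 and 265 CPM of Scnn1a, and the 5 wildtype silica mice 282, 278, 218, 362 and 339 CPM. Of the air mice, 3 lay above every silica mouse, and the lowest air mouse, at 265 CPM, was the one with high Chil3. In knockout mice Scnn1a was 197, 287 and 344 CPM in air and 270, 351 and 387 CPM after silica (lowest, median, highest). The 2 lowest knockout air mice (197 CPM in replicate 5 and 207 in the library labelled replicate 4) were the 2 with high Chil3. The log2 fold changes were -0.32 in wildtype mice (standard error 0.16, adjusted p = 0.751) and 0.31 in knockout mice (standard error 0.14, adjusted p = 0.452). The interaction, knockout minus wildtype, was 0.63 (standard error 0.21, 95% interval 0.19 to 1.06, adjusted p = 0.537).

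Without the 3 mice with high Chil3, Scnn1a stood at -0.42 in wildtype (adjusted p = 0.0961 by edgeR) and 0.14 in knockout mice (adjusted p = 0.737), with an interaction of 0.56 (adjusted p = 0.393). The summed macrophage markers of these 3 libraries were 8983, 7501 and 3387 CPM, the highest of the 70. Chil3, by which the 3 mice were chosen, is 1 of these 5 markers. It gave 8011, 6583 and 2997 CPM of the sums, which are therefore high largely by that choice. The part of macrophages in the Scnn1a values was not tested. The other 3 genes had fold changes of -0.20 (Scnn1b), -0.12 (Scnn1g) and -0.12 (Atp1b1) in wildtype mice, and of 0.005, 0.05 and -0.15 in knockout mice. Leaving out the same 3 mice moved the knockout values of Scnn1b and Scnn1g to -0.17 and -0.11. Over both genotypes Atp1b1 had -0.13 (standard error 0.06, adjusted p = 0.485), and Scnn1a, Scnn1b and Scnn1g had intervals of -0.22 to 0.22, -0.26 to 0.07 and -0.21 to 0.15. By edgeR 0 of 4 genes passed in wildtype mice (0 unadjusted; 0.0234% of all genes, 6.69% unadjusted), 0 in knockout mice (1 unadjusted; 0.211%, 10.3% unadjusted) and 0 over both (1 unadjusted; 0.304%, 9.15% unadjusted). DESeq2 and voom also gave 0 in each of these 3 comparisons.

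**Figure D2:**
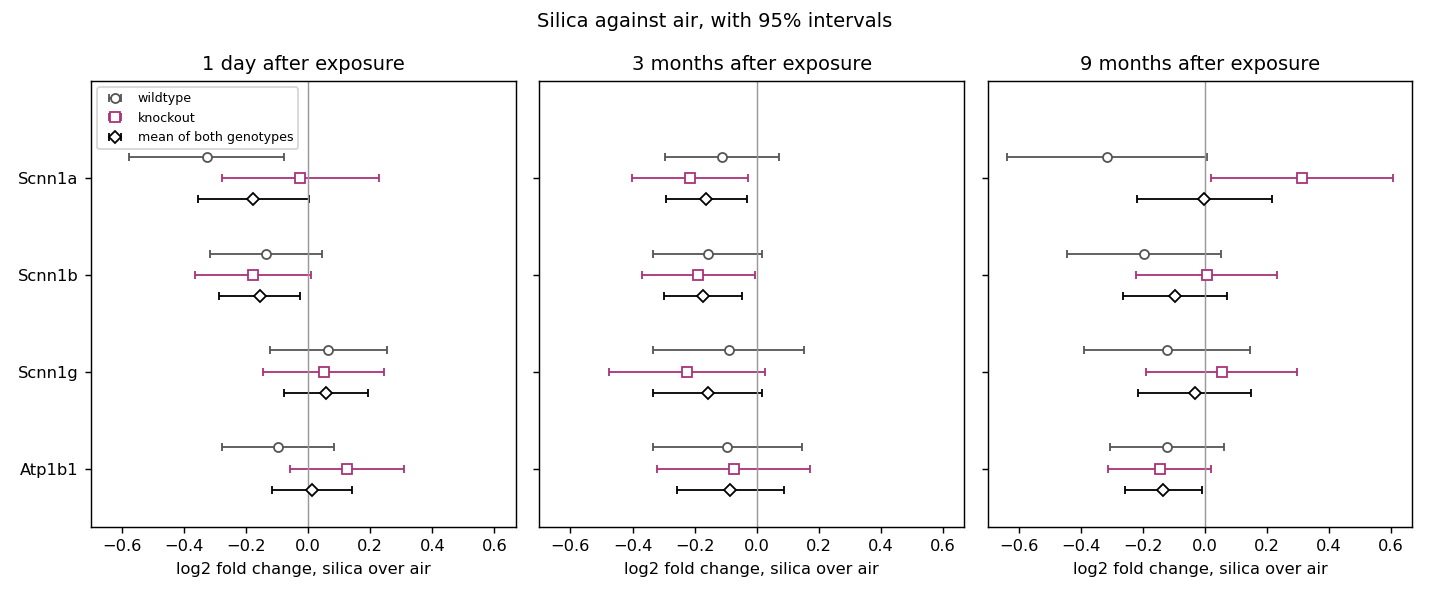
The horizontal axis of each panel is the log2 fold change of silica over air with its 95% interval, for 1 time after exposure, and the rows are the 4 genes. Circles are wildtype mice, squares knockout mice and diamonds the mean of both genotypes; at 3 months all 12 symbols are below 0, and at 9 months Scnn1a has -0.32 in wildtype and 0.31 in knockout mice.

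The balance of the subunits' RNA was compared within each library, as log2 ratios of counts, which do not depend on library scaling. A ratio shows unequal change, not which gene changed. The counts are of RNA over all cells of the lung piece, so the makeup of the channel protein was not measured. Silica was compared with air for the 3 subunit pairs in each genotype and time, and 0 of these 18 comparisons passed after adjustment over the 24 ratio comparisons of the design. The ratio of Scnn1g to Scnn1a at 1 day in wildtype mice came nearest. It ranged from -1.75 to -1.25 in air mice (mean -1.47 ± 0.193, SD, n = 6) and from -1.21 to -0.95 in silica mice (mean -1.07 ± 0.0873, SD, n = 6). The groups did not overlap, and the difference was 0.41 (two-sided exact permutation test, p = 0.00216, the smallest that 6 against 6 mice allow; adjusted p = 0.0519). With 24 comparisons, 1 ratio alone could not pass, however far apart its groups stood. The 0 of 18 therefore does not show that the ratios were unchanged. Scnn1b to Scnn1a in the same mice differed by 0.21 (exact permutation p = 0.0173, adjusted p = 0.173).

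In knockout mice of 1 day the ratio of Scnn1g to Scnn1a overlapped over almost the whole range of both groups, -1.54 to -0.77 in air and -1.56 to -0.77 after silica. The ratio of Scnn1g to Scnn1b was 0.24 higher after silica in knockout mice of 1 day (exact permutation p = 0.0216, adjusted p = 0.173). At 9 months Scnn1b to Scnn1a in knockout mice differed by -0.30 (exact permutation p = 0.0411, adjusted p = 0.247). At 3 months no ratio had an unadjusted p under 0.05. Among the wildtype groups of 9 months the smallest p that 5 against 5 mice allow is 0.00794.

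**Figure D3:**
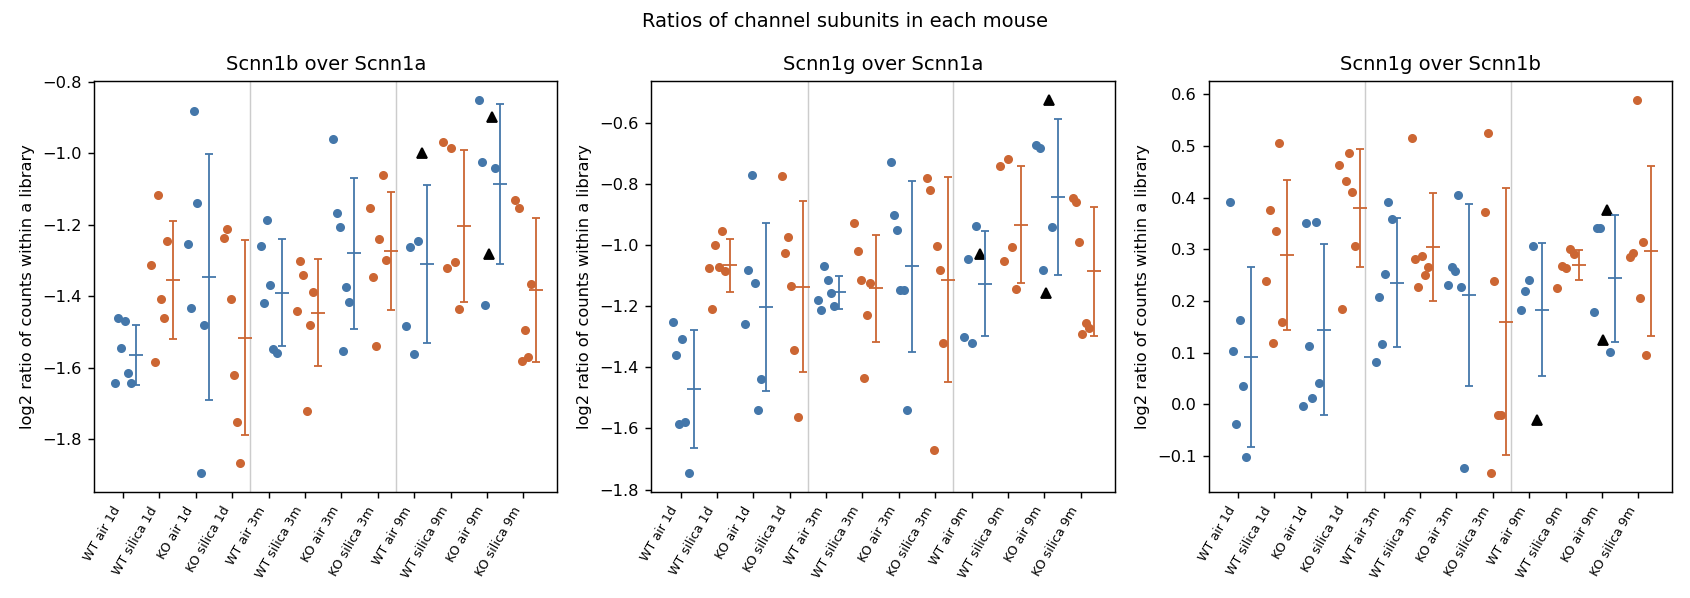
The vertical axes are log2 ratios of counts within a library for the 3 pairs of channel subunits, and the horizontal axes the 12 groups. Points are mice (blue air, orange silica), triangles the 3 air mice with high Chil3, bars means ± SD; in the middle panel the wildtype air mice of 1 day (-1.75 to -1.25) lie below all wildtype silica mice of that time (-1.21 to -0.95).

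No difference between knockout and wildtype mice passed the test for any of the 4 genes, at any time or exposure. In air, 0 of 4 passed by edgeR, DESeq2 and voom at 1 day (0 unadjusted; 0.0398% of all genes, 9.71% unadjusted), 3 months (2 unadjusted; 0.293%, 10.6% unadjusted) and 9 months (1 unadjusted; 0.0156%, 9.76% unadjusted). After silica, 0 of 4 passed by the same tools at 1 day (0 unadjusted; 0.00796% of all genes, 7.5% unadjusted), 3 months (2 unadjusted; 0.198%, 9.94% unadjusted) and 9 months (0 unadjusted; 0%, 3.78% unadjusted). The unadjusted differences were mostly in the alpha subunit. Scnn1a in silica mice of 3 months was 265, 309 and 356 CPM (lowest, median, highest) in wildtype and 209, 252 and 281 CPM in knockout mice, which overlapped. The log2 fold change of knockout over wildtype was -0.31 (standard error 0.09, adjusted p = 0.223).

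In air mice of 9 months the knockout value of Scnn1a was -0.45 (standard error 0.15, adjusted p = 0.332), and -0.37 without the 3 mice with high Chil3. In air mice of 3 months Scnn1a had -0.20 (adjusted p = 0.407) and Atp1b1 -0.25 (adjusted p = 0.443). Scnn1g after silica at 3 months had -0.26 (adjusted p = 0.484), and -0.14 without KO_silica_3m replicate 3. The interactions gave 0 of 4 at each time by edgeR (0 unadjusted at 1 day and 3 months, 1 at 9 months), DESeq2 and voom, and 0% of all genes passed them (5.48%, 7.51% and 6.86% unadjusted).

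The change of the silica effect between times was also tested, in 1 model of all 12 groups. It passed for 0 of 4 genes by edgeR, DESeq2 and voom in each of 6 comparisons, against few of all genes. In wildtype mice these were 0% for 3 months minus 1 day (4.65% unadjusted), 0% for 9 minus 3 months (5.69% unadjusted) and 0.0226% for 9 months minus 1 day (4.62% unadjusted). In knockout mice they were 0% (6.29% unadjusted), 0.958% (15.3% unadjusted) and 0.483% (11.3% unadjusted). Unadjusted, 1 value of the 4 genes was past 0.05, that of Scnn1a in knockout mice, where the effect at 9 months exceeded that at 3 months by 0.53 on the log2 scale (standard error 0.18, adjusted p = 0.115). Without the 3 mice with high Chil3 this difference was 0.34 (adjusted p = 0.580). The library labelled KO_air_9m replicate 4 is 1 of these 3 mice. Over all 30 alternatives the difference stayed above 0, from 0.34 to 0.62.

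By edgeR, the 4 genes gave adjusted calls between times in air mice and in no other comparison. In wildtype air mice Scnn1b and Scnn1g rose between 1 day and 9 months, a comparison added after the group means had been seen. Scnn1b was 106, 113 and 123 CPM (lowest, median, highest) at 1 day, 113, 127 and 139 at 3 months, and 148, 154, 150, 147 and 132 in the 5 mice of 9 months. Every mouse of 9 months was above every mouse of 1 day, which 5.43% of all genes also showed. The log2 fold change was 0.37 (standard error 0.10, 95% interval 0.16 to 0.57, adjusted p = 0.00627 by edgeR). Scnn1g was 101, 122 and 139 CPM at 1 day, 138, 149 and 166 at 3 months, and 168, 180, 178, 182 and 130 in the 5 mice of 9 months. Of these 5 mice, 4 were above every mouse of 1 day, and the fifth, at 130 CPM, was the mouse with high Chil3. The log2 fold change was 0.47 (standard error 0.12, 95% interval 0.23 to 0.71, adjusted p = 0.00322).

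Both calls held in all 17 alternatives, DESeq2 and voom among them, with fold changes of 0.32 to 0.40 for Scnn1b and 0.42 to 0.55 for Scnn1g. The alpha subunit had 0.14 over the same interval (95% interval -0.13 to 0.40, adjusted p = 0.546) and Atp1b1 0.03 (-0.17 to 0.23, adjusted p = 0.895). Thus 2 of 4 genes passed, both upwards, where 18% of all 13252 genes passed (10.1% upwards, and 29.1% unadjusted in either direction). By steps, Scnn1g had 0.30 from 1 day to 3 months (adjusted p = 0.562, with 0.0302% of all genes passing and 6.07% unadjusted) and Scnn1b 0.21 from 3 to 9 months (adjusted p = 0.191, with 12.1% and 24.6%). In these 2 steps 0 of 4 genes passed by edgeR, DESeq2 and voom, and 1 passed unadjusted in each. The summed club cell markers were 11380 to 13888 CPM in wildtype air mice of 1 day and 14160 to 20568 in those of 9 months, the ciliated cell markers 370 to 427 and 575 to 815, and the type 1 markers 5266 to 5658 and 3408 to 6344. Markers of epithelium in general went from 759 to 855 up to 970 to 1074 CPM, macrophage markers from 565 to 752 up to 962 to 8983, and endothelial markers from 2860 to 3047 down to 1264 to 2439. Of these 6 summed lists the type 1 markers were the one whose groups overlapped, and no marker was at 0 in a whole group. Other lists were left out. Their part in the rise was not tested, and age cannot be told apart from anything else that the mice of a time shared.

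In knockout air mice the gene that passed between 1 day and 9 months was Atp1b1, and only narrowly. It was 179, 206 and 271 CPM (lowest, median, highest) at 1 day and 229, 262 and 287 at 9 months, with overlapping ranges. It rose by 0.26 on the log2 scale (standard error 0.10; edgeR's adjusted p = 0.0429). In the same mice the summed ciliated cell markers were 354 to 408 CPM at 1 day and 548 to 823 at 9 months, those of epithelium in general 806 to 870 and 961 to 1156, of macrophages 621 to 736 and 950 to 7501, and of endothelium 2755 to 3158 and 1457 to 2196. None of these 4 lists overlapped between the times. Smooth muscle (453 to 518 and 309 to 441 CPM) and transitional alveolar epithelium (178 to 230 and 279 to 561) did not overlap either. The club cell markers (9202 to 13671 and 7710 to 15043 CPM) and the type 1 markers (5256 to 5815 and 3289 to 5707) did overlap. So did the type 2 markers (11415 to 13462 and 12062.5 to 15906 CPM), and other lists were left out. The share of all genes without overlap is not given for this comparison, in which 24.5% of all genes passed by edgeR. The part of these cells in the Atp1b1 values was not tested. The call was lost without the low-count filter (adjusted p = 0.0827), without the 3 mice with high Chil3 (0.204), and without single libraries in 9 of 12 cases (up to 0.136). Scnn1g was 106, 136 and 149 CPM at 1 day and 92.6, 160 and 184 at 9 months, with a fold change of 0.23 (adjusted p = 0.162), and Scnn1b was 104, 108 and 144 and 85.0, 137 and 155, with 0.13 (adjusted p = 0.382). Without the 3 mice with high Chil3, the library labelled KO_air_9m replicate 4 among them, these fold changes were 0.40 for Scnn1g (adjusted p = 0.00864) and 0.31 for Scnn1b (0.0236), and both passed. Voom, which gives divergent libraries less weight, gave 0.37 (0.00603) and 0.27 (0.0301).

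Scnn1a in the same comparison had -0.16 (adjusted p = 0.388), and 0.01 without those mice. By edgeR 1 of 4 genes passed, by DESeq2 1 and by voom 3. By edgeR 24.5% of all genes passed (12.9% upwards, and 35.1% unadjusted in either direction). Between 3 and 9 months 0 of 4 passed in knockout air mice (1 unadjusted, 0 by DESeq2, 0 by voom), with 19.3% of all genes passing and 31.1% unadjusted. Atp1b1 was nearest, at 0.25 (adjusted p = 0.0583). Between 1 day and 3 months 0 of 4 passed (0 unadjusted, 0 by DESeq2, 0 by voom), with 0% of all genes passing and 5.43% unadjusted. Whether the rise with time differed between genotypes was not tested.

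Among the 4 genes, Scnn1b and Scnn1g varied most alike. Their Pearson correlation over the log2 levels of 70 libraries was 0.78, and 0.73 after group means were taken out. Scnn1a correlated with Scnn1b at 0.56 and with Scnn1g at 0.52. Atp1b1 stood apart, at 0.22 to 0.35 with the 3 subunits. These are descriptions over libraries that share depth, tissue piece and cell mixture. The genes with the most similar profile among 10228 were Cyp2f2 (0.72), Sorbs3 (0.72) and Acsf2 (0.72) for Scnn1a, Cyp2f2 (0.82), Scnn1g (0.78) and Wwc1 (0.75) for Scnn1b, and Scnn1b (0.78), Cyp2f2 (0.75) and Scgb1a1 (0.74) for Scnn1g. Cyp2f2 and Scgb1a1 are defining genes of club cells, the secretory cells of mouse airways. For Atp1b1 they were Glul (0.72), the glutamine synthetase, Fkbp5 (0.59), a co-chaperone of steroid receptors, and Slc6a2 (0.59), the noradrenaline transporter.

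Marker lists were also compared with the 4 genes as the mean log2 level of their genes, in which low and high markers weigh the same. Within groups, that of the 8 alveolar type 1 markers correlated with Scnn1a at 0.52, Scnn1b at 0.61, Scnn1g at 0.72 and Atp1b1 at 0.03, and that of the macrophage markers at -0.38, -0.50, -0.53 and 0.23. The ciliated cell markers had 0.37, 0.49, 0.36 and 0.36. Endothelium and heart muscle also had values above 0 with the 3 subunits, smaller than those of the type 1 markers. These were 0.25, 0.33, 0.40 and -0.36 for endothelium, and 0.10, 0.31, 0.42 and 0.18 for heart muscle of the pulmonary vein. T and B cell markers had -0.25, -0.43, -0.46 and -0.51. The alveolar type 2 markers had -0.11, -0.03, 0.004 and 0.16. Not all lists are given here. The 4 club cell markers, although Cyp2f2 and Scgb1a1 are among them, had 0.11, 0.22, 0.07 and 0.20. Taken alone within groups, Cyp2f2 had 0.63 with Scnn1a, 0.77 with Scnn1b and 0.76 with Scnn1g. Scgb1a1 alone had 0.64 with Scnn1g. The libraries with the lowest type 1 sums were KO_silica_3m replicate 3 (3200 CPM), the library labelled KO_air_9m replicate 4 (3289) and WT_air_9m replicate 5 (3408). The first of them was also the lowest in Scnn1b and Scnn1g, and the lowest Scnn1a of the 70 libraries was in KO_air_9m replicate 5 (197 CPM), the library labelled KO_air_9m replicate 4 (207) and KO_silica_3m replicate 3 (209).

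**Figure D4:**
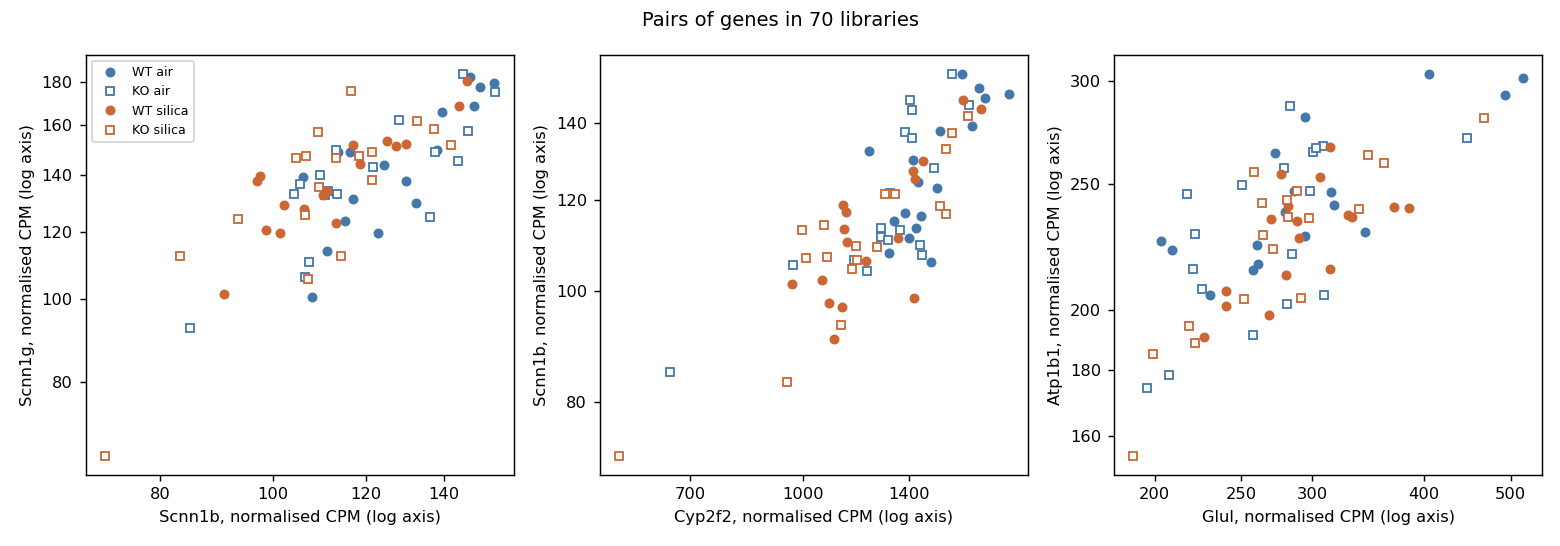
Each panel plots 2 genes over 70 libraries on log axes in normalised CPM: Scnn1g against Scnn1b, Scnn1b against Cyp2f2 and Atp1b1 against Glul, with correlations of 0.78, 0.82 and 0.72. Circles are wildtype and squares knockout mice (blue air, orange silica); the lone square at the lower left of the first panel is KO_silica_3m replicate 3.

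Of the genes that work with the channel and the pump and are described here, 3 passed the test with silica over both genotypes: Fxyd1, Tmprss4 and Slc5a1. Counts are given over both genotypes, beside the 4.62%, 8.2% and 0.304% of all genes that passed at the 3 times in order. Of 12 other pump subunits and FXYD proteins, which are small regulators of the pump, 8 could be tested. At 1 day and 9 months 0 of 8 passed by edgeR, DESeq2 and voom (0 unadjusted at both times). At 3 months 1 of 8 fell, Fxyd1 (phospholemman, a pump regulator best known from heart and muscle), with a value of -0.37 on the log2 scale (standard error 0.09, adjusted p = 0.00812), which no longer passed when all 70 libraries were fitted together (adjusted p = 0.101). At that time 5 of 8 passed unadjusted (20% of all genes did), 1 passed by DESeq2 and 2 by voom. Fxyd1 medians there were 35.6 CPM in wildtype air and 28.3 in wildtype silica mice, and 29.2 and 23.6 in knockout mice. The 5 markers of the heart muscle that lines the pulmonary vein had a median of -0.68 in the same comparison. Of them 5 passed unadjusted and 1 fell, Actc1, cardiac actin (-0.62, adjusted p = 0.0488, past the threshold in 10 of 30 alternatives). Their summed level was 328 to 1065 CPM in wildtype air and 188 to 415 in wildtype silica mice, and 205 to 643 and 39.3 to 616 in knockout mice. The part of that tissue in the Fxyd1 values was not tested. The list's median fold change was -0.02, -0.19 and 0.0043 at the 3 times, and that of all genes -0.0046, -0.0056 and -0.0049.

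Hormone and kinase control, with the mineralocorticoid and glucocorticoid receptors, the kinases Sgk1 and Wnk1 and the ubiquitin ligases Nedd4 and Nedd4l, which remove the channel from the surface, gave 0 of 15 tested genes by edgeR at each time (1, 4 and 2 unadjusted). DESeq2 gave 0, 1 and 0 and voom 0, 2 and 0. The list's medians were -0.02, -0.06 and 0.01. The lowest p values at 1 day were those of Wnk1 (-0.11, adjusted p = 0.203) and Sgk1 (0.09, adjusted p = 0.438). At 3 months they were those of Wnk1 (-0.12, adjusted p = 0.0596) and Nr3c2, the mineralocorticoid receptor (-0.19, adjusted p = 0.1099). At 9 months they were those of Stk39 (-0.30, adjusted p = 0.264) and Nedd4 (0.16, adjusted p = 0.503).

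Among 10 tested proteases that cleave and activate the channel and their inhibitors, 1 rose at 1 day and 0 fell. Tmprss4, a membrane serine protease that can activate the channel, rose by 0.47 (standard error 0.11, adjusted p = 0.00489), with medians of 16.5 CPM in wildtype air and 23.2 in wildtype silica mice, and 18.9 and 25.7 in knockout mice. The list's median was 0.02 at 1 day, 0.0075 at 3 months and -0.05 at 9 months. At 3 months 0 of 10 passed by edgeR (1 unadjusted, 0 by DESeq2, 0 by voom), and at 9 months 0 of 10 (3 unadjusted, 0 by DESeq2, 2 by voom).

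Of the other sodium, chloride and water pathways of lung epithelium, the sodium-glucose cotransporter Slc5a1 was the gene that passed, at 1 day (1 of 17 tested, 5 unadjusted, 1 by DESeq2 and 1 by voom) and at 3 months (1 of 16, 7 unadjusted, 1 by DESeq2 and 4 by voom). It rose by 1.29 (standard error 0.21, adjusted p = 3.88e-05) and 1.43 (standard error 0.23, adjusted p = 1.3e-05). It is a low gene: wildtype mice of 1 day had 1.36 to 3.95 CPM in air (3 to 16 counts) and 6.29 to 9.90 after silica (15 to 21 counts), and knockout mice 0.635 to 4.34 and 3.64 to 10.5. The wildtype groups did not overlap (1.97% of all genes were higher without overlap in that comparison), and the knockout groups did. At 9 months 0 of 16 passed by edgeR (3 unadjusted, 0 by DESeq2, 1 by voom). The medians of the list were 0.01, 0.06 and -0.02. The chloride channel Cftr and the exchanger Slc26a9 had 0.31 (adjusted p = 0.276) and 0.32 (adjusted p = 0.159) at 9 months over both genotypes. In knockout mice alone Slc26a9 rose at 9 months, by 0.56 (standard error 0.12, adjusted p = 0.0451). It was 35.0, 46.5 and 57.8 CPM in knockout air mice and 49.7, 70.7 and 78.0 after silica (lowest, median, highest), which overlapped. The call held in 16 of 30 alternatives (adjusted p = 0.00861 to 0.151), and without the 3 mice with high Chil3 the value was 0.46 and passed. In wildtype mice it had 0.09 (adjusted p = 0.944). Other genes also passed in 1 genotype by edgeR but not over both. At 3 months Slc12a2 of this list rose in wildtype mice, and St14 of the protease list fell in knockout mice.

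**Figure D5:**
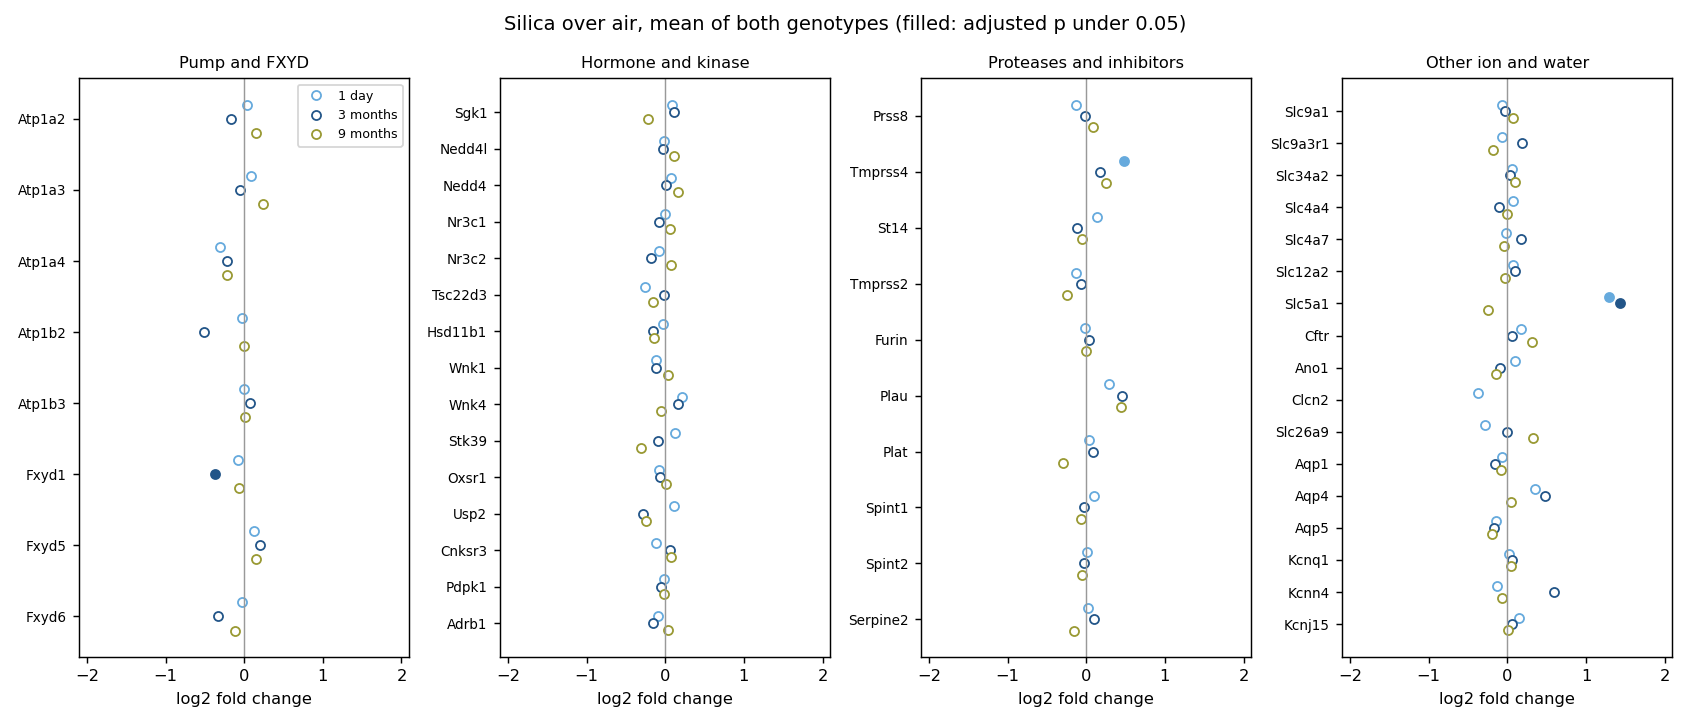
Each panel is 1 list of genes, with the log2 fold change of silica over air (mean of both genotypes) on the horizontal axis and 1 row per tested gene. Colours are the 3 times and filled symbols passed adjusted p 0.05: Fxyd1 at 3 months, Tmprss4 at 1 day, and Slc5a1 at 1 day and 3 months.

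The epithelial cells that carry the channel were also followed by their markers over both genotypes. At the 3 times in order, 4.62%, 8.2% and 0.304% of all genes passed. Of 8 alveolar type 1 markers, 1 rose at 1 day (Pdpn, by 0.39) and 4 fell at 3 months, Akap5 (-0.32), Hopx (-0.28), Clic5 (-0.21) and Emp2 (-0.18), while 0 passed at 9 months by edgeR. Unadjusted, 4, 6 and 0 passed, with 1, 4 and 0 by DESeq2 and 2, 6 and 0 by voom. By genotype at 3 months, the same 4 fell in knockout mice. In wildtype mice 0 fell and Pdpn rose, with a list median of -0.12, against -0.24 in knockout mice. With all 70 libraries in 1 fit, Akap5, Clic5 and Emp2 no longer passed (adjusted p = 0.0679, 0.0602 and 0.0700). Of 8 alveolar type 2 markers, Sftpa1 and Lamp3 rose at 1 day (0.35 and 0.49) and at 3 months (0.33 and 0.31), and Sftpb fell at 3 months (-0.27). At 9 months 0 of the type 2 markers passed by edgeR. Unadjusted, 4, 3 and 2 passed at the 3 times, with 3, 3 and 0 by DESeq2 and 3, 3 and 2 by voom. Of 4 club cell markers 1 fell at 1 day and 0 passed at 3 and 9 months by edgeR (3 and 1 unadjusted, 2 and 1 by DESeq2, 2 and 0 by voom), with list medians of -0.10, -0.09 and -0.10. The 1 was Cyp2f2, the gene most like Scnn1a and Scnn1b over libraries, which fell (-0.32, adjusted p = 1.62e-05) and had -0.29 at 3 months (adjusted p = 0.0510). Of 5 ciliated cell markers 0 passed by edgeR at the 3 times (1, 0 and 1 unadjusted, 0 by DESeq2, and 1, 0 and 0 by voom). Of 6 markers of epithelium in general 0 passed by edgeR (3 unadjusted at each time, 1, 0 and 3 by DESeq2, and 1, 1 and 3 by voom). Of the markers of transitional alveolar epithelium 1 of 4 tested rose at 1 day and 3 months, Lgals3 (0.49 and 0.76), the galectin-3 gene, which macrophages also express, and 0 of 5 passed at 9 months by edgeR (3 unadjusted, 1 by DESeq2, 1 by voom). At 1 day Lgals3 no longer passed when all 70 libraries were fitted together (adjusted p = 0.0871).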

How the data were processed

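The deposited values were whole-number counts per gene in 1 table, used as the authors deposited them. Tools named in the submitters' processing notes were HTSeq 0.11.2, HISAT2 2.1.0, Trimmomatic 0.35, SAMtools 1.8, bcl2fastq 2.19 and Cufflinks, with genome mm10. How reads were assigned to genes and strands is not given in the sources used here. Per the labels' protocols, total lung RNA was depleted of ribosomal RNA and made into TruSeq Stranded Total RNA libraries. Of 24439 rows, 16 that repeated a gene with identical counts were dropped. All 70 columns were matched to samples by their names.

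Separate fits were made for the 3 times (24, 24 and 22 libraries in 4 groups) with edgeR 4.0.16 in R 4.3.3, using filterByExpr, TMM scaling and the robust quasi-likelihood F test, which left 12558, 12647 and 12826 genes. Comparisons between times used 1 model of 12 groups (13252 genes). Benjamini-Hochberg adjustment ran over all genes of a comparison, with a threshold of 0.05. Shares of all genes that passed are those of edgeR, also where counts by DESeq2 or voom stand beside them. A standard error is the size of the log2 fold change divided by the root of its F, an approximation, and 95% intervals use the fit's degrees of freedom. CPM used TMM factors over all 70 libraries. Subunit ratios used counts plus 0.5 and exact permutation tests (Python 3.11.15, numpy 2.4.6, pandas 2.3.3). Profiles were compared over genes with a mean of at least 10 CPM. Each library carries a number of its own in the labels and was taken as 1 mouse; p values measure the spread between these samples. The code was tested on simulated counts.

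Besides the 4 members, named genes were up to 4 members of a list that passed with silica over both genotypes, or the 2 with the lowest p where none passed, and the 3 genes with the profile most like each member. Slc26a4, Chil3, Sftpc, Ager, St14, Slc12a2 and values of a named gene at another time or in 1 genotype were added for orientation. The members, lists and rules were chosen with earlier results of these data known. Some genes of the lists, and 1 of the 4 ratios, are not reported here; the ratios stayed adjusted over all 24 comparisons. Alternatives were DESeq2 1.42.0 (its size factors in edgeR, and its Wald test), limma 3.58.1 voom with quality weights, no low-count filter, the compared groups only, all 70 libraries, the 3 air mice with high Chil3 left out, each library left out, for ratios a pseudocount of 2 and a difference in medians, and, added after seeing the data, edgeR without robust estimation.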

Additional observations from a re-analysis of the deposited data

Results flagged for a closer look

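Of 48 sets of values (4 genes in 12 groups), 2 held a mouse far below the others of its group, where chance alone marks about 1 set in 20. Scnn1b in knockout silica mice of 3 months was 71.8 CPM in replicate 3, and 106 CPM in the next mouse. Scnn1g in wildtype air mice of 9 months was 130 CPM in replicate 5, and 168 CPM in the next mouse. The first mouse had the lowest summed type 1, club and ciliated cell markers of the 70 libraries (3200, 4595 and 215 CPM). The second had the highest summed macrophage markers (8983 CPM, of which Chil3 alone gave 8011). The part of these in the channel values was not tested.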

How the results depend on the processing

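No paired analysis was possible because the labels carry no replicate numbers that groups share; replicates were numbered in accession order. In silica against air, Scnn1a in wildtype mice of 1 day passed with voom (-0.34) and with the compared groups only (-0.33), so that 1 member passed in each, and ranged from -0.42 (passed, without WT_silica_1d replicate 2) to -0.27 with single libraries left out, where 0 to 1 members passed. Values near 0 changed sign: Scnn1a in knockout mice of 1 day was 0.0706 with voom, and with voom and without the 3 high-Chil3 mice knockout values at 9 months were -0.0873 and -0.17 (Scnn1b) and -0.0313 and -0.11 (Scnn1g). Leaving out single libraries gave -0.12 to 0.0816 (Scnn1a) and -0.0147 to 0.10 (Scnn1g) in knockout mice of 1 day, -0.0124 to 0.0445 for Atp1b1 over both genotypes at 1 day, -0.0883 to 0.0697 (Scnn1b) and -0.0544 to 0.12 (Scnn1g) in knockout mice of 9 months, and -0.051 to 0.0433 for Scnn1a over both at 9 months.

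Between 1 day and 9 months in air, wildtype Atp1b1 was -0.0128 without the filter, -0.0104 with voom, -0.0310 without the high-Chil3 mouse and -0.0345 to 0.0721 with single libraries left out. In knockout mice Atp1b1 no longer passed without the filter (0.24) or the high-Chil3 mice (0.22), and was 0.21 to 0.31 with single libraries left out. Scnn1b then passed with voom (0.27) and without the high-Chil3 mice (0.31), as did Scnn1g (0.37 and 0.40; 0.16 to 0.33 with single libraries left out, passing without KO_air_9m replicate 4), and Scnn1a was 0.0136 without the high-Chil3 mice. The members that passed there numbered 0 without the filter, 3 with voom, 2 without the high-Chil3 mice and 0 to 1 with single libraries left out. Between 3 and 9 months in knockout air mice, Scnn1b (0.30) and Scnn1g (0.33), 2 members, passed without the high-Chil3 mice, and Atp1b1 was 0.18 to 0.31, passing without 3 of the single libraries (0 to 1 members).

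Counts of all genes moved more. Wildtype mice of 1 day had 311 genes, 761 with voom, 713 with the compared groups only and 211 to 529 with libraries left out; knockout mice 246, and 125 with the compared groups only. At 3 months wildtype mice had 382, 177 when all 70 were fitted, 579 when only the compared groups were, and 277 to 600 with libraries left out; knockout mice 615, 283 and 343; both 1037, and 664 with all 70. At 9 months wildtype mice had 3, 42 with voom, 226 without the high-Chil3 mice, 8 with all 70 and 1 to 8 with libraries left out; knockout mice 27, 143 with voom, 54 with DESeq2, 222, 152 and 8 to 65; both 39, 261, 75, 520, 119 and 19 to 96. The causes were not tested.

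Results given one by one were chosen after these alternatives had been computed. Of 64 further values of the members (1778 alternatives) 23 changed sign at least once, none larger than 0.0925, and 0 passed; of 20 further ratios (279 alternatives) 8 did, none larger than 0.107, and 0 passed. Depth limits low genes such as Slc5a1, at 1 to 94 counts a library.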
